A study of Mus musculus with 2 samples.

Results

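The interleukin-6 family was examined in osteoblastic cells of mice with 1 or with no functional copy of Ebf2, through 9 genes: the ligands Il6, Il11 and Lif, the receptor chains Il6ra, Il6st, Lifr and Osmr, the transcription factor Stat3 and the feedback inhibitor Socs3. Members were the genes of this name to which the array's annotation assigns a probe set with exactly 1 gene symbol. They have 23 of the 34958 such probe sets and are 9 of 18194 genes. The genes were selected on the ratio of the Ebf2-/- over the Ebf2+/- signal, in the sense that the family was chosen with these ratios known, so the values below are a description. Both groups were C57Bl/6 embryos at stage E18.5 that carry a lacZ marker at the Ebf2 locus, heterozygous (Ebf2+/-) in the control and homozygous (Ebf2-/-) in the knockout. Cells from tibia and femur were sorted with FDG, a substrate that fluoresces when the lacZ product cleaves it, and were then grown without passage in alpha MEM containing 10% FCS. Their RNA was hybridised to Affymetrix Mouse genome 430 2.0 arrays, 1 array for each genotype. A number of 3 mice per genotype is stated, without saying whether their RNA was pooled, and a wild-type array was not analysed here. Both groups lack at least 1 functional copy of Ebf2, and both hold only cells that were gated on the marker and then cultured.

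Cytokines of this family signal through complexes that contain the shared chain gp130, encoded by Il6st. Interleukin-6 and interleukin-11 first bind a chain of their own (Il6ra for interleukin-6), leukaemia inhibitory factor brings the chain encoded by Lifr together with gp130, and oncostatin M in the mouse uses mainly the chain encoded by Osmr. The occupied receptors activate Janus kinases, which phosphorylate Stat3, and Socs3, itself a target of Stat3, binds gp130 and limits the signal. In bone, osteoblasts and stromal cells are known sources of these ligands, which act on osteoblasts and, through them, on osteoclasts.

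With 1 array for each genotype there was no replicate error to set a difference against. No test was made, and the size of each ratio of Ebf2-/- over Ebf2+/- is given with 2-fold as the reference size. The deposited MAS5 signals of the authors are a linear brightness in arbitrary units that had been scaled to the same trimmed mean on both arrays (2% left out at each end). The floor, taken as background, was the 95th percentile of 86 probe sets of smell and taste receptor genes (olfactory, vomeronasal, taste): 17.8 on the Ebf2+/- and 23.8 on the Ebf2-/- array. Where a probe set exceeded the floor of a single array, its ratio was taken against the other array's floor and is a lower bound, written "at least". The ratios of different probe sets for one gene had a pooled SD of 0.44 (log2) over 4119 genes, a factor of 1.36. This SD leaves out variation between animals and cultures. In bulk RNA, fewer cells of a type and less RNA per cell cannot be told apart.

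The upstream sequences of the 3 members past 2-fold, Il6, Socs3 and Lifr, and of Lif, the other ligand above background, are shown because these genes span the range of ratios below. Each is the 250 bases before the annotated start, 5′ to 3′ on the gene's strand, from RefSeq (GRCm38.p6). All 9 members were found in that table, with 11 windows in all, since Il11 and Lifr have more than 1 start. Capitals mark matches to 6 motifs, searched on both strands: the NF-kB consensus, AP-1 (TGANTCA), CRE (TGACGTCA), C/EBP (TTGCNNAA), STAT (TTCNNNGAA) and EBF (CCCNNGGG).
Il6, chr5:30012864-30013113, plus strand: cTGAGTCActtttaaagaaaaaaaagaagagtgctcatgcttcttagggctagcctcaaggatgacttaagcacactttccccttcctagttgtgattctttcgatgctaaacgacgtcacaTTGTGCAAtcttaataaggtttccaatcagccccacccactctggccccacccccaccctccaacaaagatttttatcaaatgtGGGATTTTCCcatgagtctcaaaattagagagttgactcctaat
Socs3, chr11:117969367-117969616, minus strand: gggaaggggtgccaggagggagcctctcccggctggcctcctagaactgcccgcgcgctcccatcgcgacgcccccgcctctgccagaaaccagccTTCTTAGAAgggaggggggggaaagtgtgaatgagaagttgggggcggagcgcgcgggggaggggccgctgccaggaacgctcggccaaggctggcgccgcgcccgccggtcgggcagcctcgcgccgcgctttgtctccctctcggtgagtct
Lifr, chr15:7129322-7129571, plus strand: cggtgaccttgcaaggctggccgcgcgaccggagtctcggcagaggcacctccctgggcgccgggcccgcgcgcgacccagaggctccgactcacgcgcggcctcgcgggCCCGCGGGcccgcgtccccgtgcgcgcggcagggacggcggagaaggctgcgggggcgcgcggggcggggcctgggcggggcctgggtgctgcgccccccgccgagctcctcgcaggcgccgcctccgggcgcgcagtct
Lifr, second start, chr15:7140292-7140541, plus strand: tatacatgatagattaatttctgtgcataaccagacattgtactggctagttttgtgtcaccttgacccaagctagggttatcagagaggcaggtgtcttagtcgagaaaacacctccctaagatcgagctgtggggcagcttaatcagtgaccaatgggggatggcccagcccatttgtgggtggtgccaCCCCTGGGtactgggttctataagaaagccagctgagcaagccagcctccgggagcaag
Lif, chr11:4257318-4257567, plus strand: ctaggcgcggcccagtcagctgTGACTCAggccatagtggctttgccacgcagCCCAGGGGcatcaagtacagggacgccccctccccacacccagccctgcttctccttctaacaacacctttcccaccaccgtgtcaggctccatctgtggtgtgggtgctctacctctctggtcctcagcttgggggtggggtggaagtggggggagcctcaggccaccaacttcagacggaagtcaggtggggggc

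The Il6 window was the 1 member window with an NF-kB match (GGGATTTTCC, bases -44 to -35 from the start) and the 1 with a C/EBP match (TTGTGCAA, -128 to -121). NF-kB and C/EBP factors are known inducers of Il6. These motifs occur in 3.90% and 9.56% of 32851 RefSeq windows of the same length, and no matches of different motifs overlap in the member windows. AP-1 matches stood in the windows of all 3 ligands (1 of the 2 for Il11) and in no window of a receptor, Stat3 or Socs3, against 6.75% of all windows. The Socs3 window held the 1 STAT match (TTCTTAGAA, -154 to -146; 7.02% of windows). An EBF match, the letters bound by Ebf2 and its relatives, was found in both Lifr windows and in those of Lif, Il6ra, Osmr and Stat3, against 11.8% of windows, and none was found in the windows of Il6, Il11, Il6st or Socs3. CRE had no match in the member windows (1.55% of windows). The base composition also differed, from 42.8% G+C for Il6 to 82.4% for the first Lifr window, with a median of 52.4% over all windows. No motif here was tested for binding.

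Of the 9 members, 8 were above background on at least 1 array, 6 on both, and Il11 on neither. By the brightest probe set of each gene, Il6, Lifr and Socs3 were at least 2-fold higher on the Ebf2-/- array, and 0 members were lower by that much. Over all genes above background, 6.30% passed 2-fold upwards and 3.46% downwards. The median log2 ratio was 0.71 over the 8 members and 0.03 over the 11785 measured genes, or -0.01 over the 11176 of them with a ratio. Because the members were chosen with these ratios known, nothing is read from their share against the background. Over single probe sets, 6 of the 17 above background were at least 2-fold higher and 0 lower, against 6.58% and 3.61% of all single-symbol probe sets above background. Of 14 member probe sets that exceeded both floors, the Ebf2-/- signal was the higher in 12. The 14 belong to only 6 genes and are not separate observations, and 1 of the 12 is Lif at a log2 ratio of 0.0002. Over all genes with a ratio, 5526 were higher and 5650 lower.

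**Figure D1:**
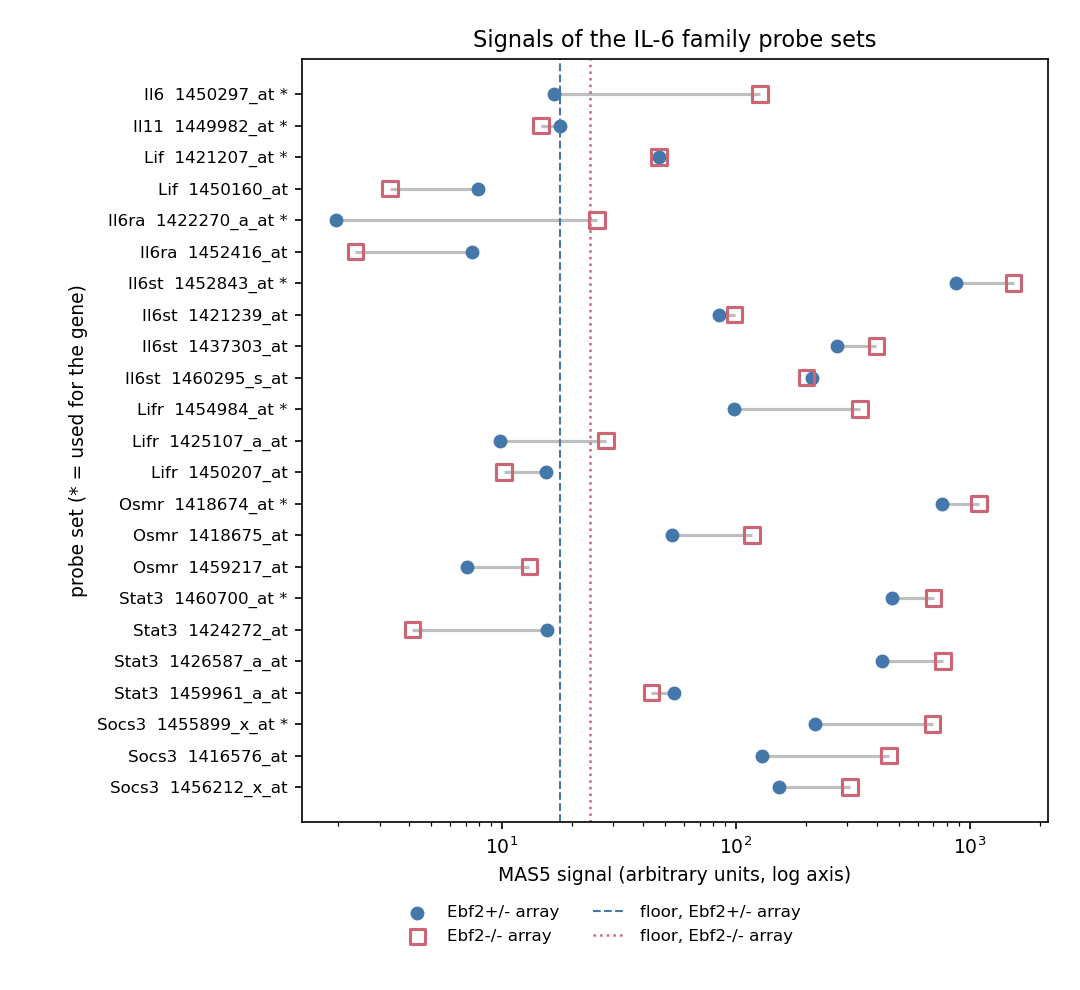
MAS5 signal (horizontal log axis) of each of the 23 member probe sets on the Ebf2+/- array (filled circles) and the Ebf2-/- array (open squares), with vertical lines at the floors of 17.8 and 23.8 and an asterisk at the probe set used for the gene. Il6 crosses from below the floor to 127, the 3 Socs3 pairs all lie further right on the Ebf2-/- array, and both Lif values at 47.0 coincide.

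Among the ligands, Il6 was seen on the Ebf2-/- array only. Its single probe set (1450297_at) read 16.6 on the Ebf2+/- array, under the floor, and 127 on the Ebf2-/- array, at least 7.14-fold higher. The brightest of the 86 background probe sets read 19.7 and 33.5 on these arrays, so the Ebf2-/- signal of Il6 lay above all of them and the Ebf2+/- signal did not. Of 490 genes above background on the Ebf2-/- array only whose ratio could be bounded, 5 had a higher bound than Il6. All these bounds are taken against the same Ebf2+/- floor, so their order is only that of the Ebf2-/- signals. With a pseudocount of 50 in place of the floor, the log2 ratio of Il6 was 1.41 instead of 2.84.

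Lif, the ligand that binds the Lifr chain, had the same signal on both arrays. Its brighter probe set (1421207_at) read 47.0 on the Ebf2+/- and 47.0 on the Ebf2-/- array, with no difference at this precision. The sign of its log2 ratio follows the scaling, with -0.18 when the arrays were scaled to the spike-in transcripts. The other Lif probe set (1450160_at) read 7.93 and 3.33, below both floors. Il11 (1449982_at) read 17.7 and 14.7, both under the floor of their array, and no ratio is given for it. The 3 ligands therefore had 3 patterns: seen on the Ebf2-/- array only, level on both, and below background on both.

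By the distance of the 2 floor-set log2 signals, the genes nearest to Il6 were Iigp1, an interferon-inducible GTPase (16.2 and 129), Olfml1 (17.9 and 124) and Fmo1, a flavin-containing monooxygenase (10.6 and 131). The Ebf2+/- signals of Il6, Iigp1 and Fmo1 were below the floor, so on that array the likeness says only that none was above background, and signals of different probe sets are not on one scale of abundance.

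Among the receptor chains above background on both arrays, Lifr had the highest ratio. Its brightest probe set (1454984_at) read 98.5 on the Ebf2+/- and 339.6 on the Ebf2-/- array, 3.45-fold higher. A second (1425107_a_at) read 9.84 and 27.9, at least 1.57-fold higher, and the last (1450207_at) read 15.4 and 10.2, below both floors. The size of the Lifr ratio thus rests on 1 probe set, and the mean over the 2 probe sets with a ratio was 1.22 (log2).

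Il6st, which encodes the shared chain gp130, was above background with all 4 of its probe sets on both arrays. The brightest (1452843_at) read 870.2 and 1543, 1.77-fold higher on the Ebf2-/- array. The other 3 read 271 and 399.6 (1437303_at), 85.1 and 99.02 (1421239_at), and 211 and 201.0 (1460295_s_at). Their log2 ratios were 0.56, 0.22 and -0.07, so the probe sets of Il6st differed in size and 1 was lower on the Ebf2-/- array. The mean over the 4 was 0.38. The pooled SD of 0.44 is one of single probe sets and gives no error for this mean.

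Osmr, the chain for oncostatin M, was higher on the Ebf2-/- array with both probe sets above background. They read 759.7 and 1094 (1418674_at, 1.44-fold) and 53.2 and 117 (1418675_at, 2.21-fold), so 2-fold was passed by the dimmer probe set only. The remaining one (1459217_at) read 7.09 and 13.1, below both floors. Il6ra, the chain that binds interleukin-6 itself, was close to background. One probe set (1422270_a_at) read 1.96 on the Ebf2+/- and 25.5 on the Ebf2-/- array, where the floor was 23.8, which bounds its ratio at 1.43-fold or more. Most of this bound of 0.52 (log2) is the difference of the floors, which alone have a log2 ratio of 0.42. The other probe set (1452416_at) read 7.48 and 2.37, below both floors. With the 99th percentile of the background probe sets as floor (32.3 on the Ebf2-/- array), Il6ra was not above background on either array, and the same held without the probe sets whose names end in _s_at, _x_at or _a_at, which can share probes with other transcripts.

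**Figure D2:**
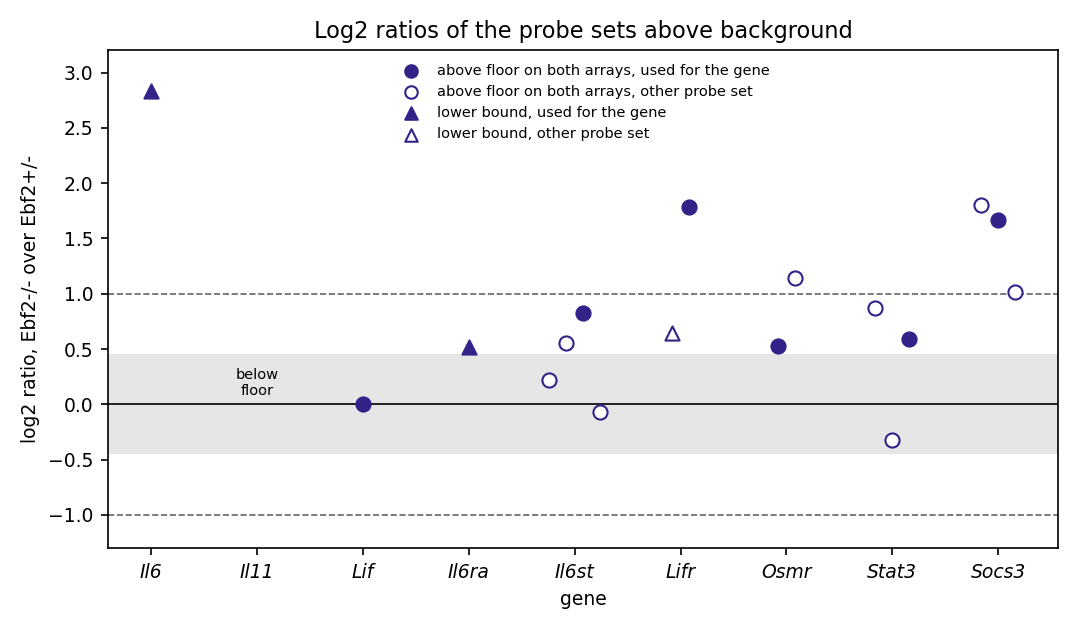
Log2 ratio of Ebf2-/- over Ebf2+/- (vertical axis) for each member probe set above background, by gene; circles are above the floor on both arrays, triangles are lower bounds, filled symbols are the probe set used for the gene, and the grey band is ±0.44, the pooled SD between probe sets of one gene. All 3 Socs3 probe sets lie at or above 1.02, whereas those of Il6st and Stat3 spread from below 0 to under 1.

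Downstream of the receptors, Socs3 was higher on the Ebf2-/- array with every probe set. The brightest (1455899_x_at) read 219 and 694, 3.17-fold higher. The others read 130 and 452 (1416576_at, 3.48-fold) and 152 and 308 (1456212_x_at, 2.02-fold). It is the 1 member whose several probe sets all passed 2-fold, and its log2 ratio lay between 1.47 and 1.80 in the 8 alternative settings. Stat3, the transcription factor that these receptors activate, read 466 and 702 with its brightest probe set (1460700_at), 1.51-fold higher. A second (1426587_a_at) read 420 and 770, 1.83-fold higher. Another (1459961_a_at) went the other way with 54.6 and 43.6, 1.25-fold lower, and the last (1424272_at) read 15.6 and 4.14, below both floors. Stat3 acts after phosphorylation, which the arrays do not measure.

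**Figure D3:**
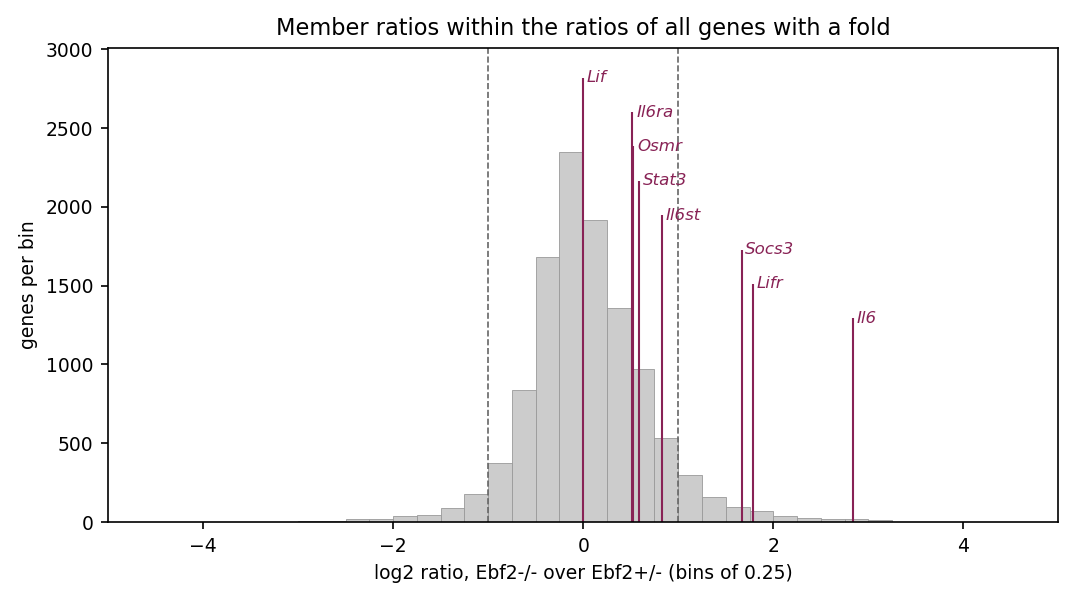
Number of genes (vertical axis) by log2 ratio of Ebf2-/- over Ebf2+/- in bins of 0.25 for the 11176 genes with a ratio, with dashed lines at 2-fold and vertical lines at the 8 measured members. Lif lies at the centre, Il6ra, Osmr, Stat3 and Il6st between 0.52 and 0.83, and Socs3, Lifr and Il6 at 1.67, 1.79 and 2.84.

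The order of the ratios over the 11176 genes with one, bounds included at their value, was also taken from the highest down. Lifr stood at rank 177, Socs3 at 222, Il6st at 1083, Stat3 at 1846, Osmr at 2118 and Lif at 5524. Il6 and Il6ra have bounds in place of ratios, so their place in this order is not fixed. The log2 ratios of Osmr, Stat3 and Il6st (0.53, 0.59 and 0.83) lie closer together than the pooled SD of 0.44 between probe sets. Those of Lifr and Socs3 (1.79 and 1.67) do so as well, and the order within each of these groups is not resolved. By the mean over probe sets with a ratio, Osmr stood at 0.83 and Il6st and Stat3 at 0.38.

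The rest of the pathway was described by lists drawn from general knowledge, some of which share genes (Cebpd and Zfp36 are listed as Stat3 targets and as partners of Il6). These lists, and the cell type markers further below, were chosen with earlier results of these data known. Their shares past 2-fold are therefore a description. Of 10 other ligands, 6 had a probe set of their own and 3 were above background. Clcf1, a ligand of the ciliary neurotrophic factor receptor, read 22.9 and 48.4, 2.11-fold higher. It did not reach 2-fold with spike-in scaling, with the pseudocount or as a mean over all probe sets. Ctf1, cardiotrophin-1, read 39.5 and 25.9, 1.52-fold lower. Ebi3 read 20.2 and 18.2, with no ratio given, and oncostatin M, Osm, read 15.0 and 21.2, below both floors. Of 4 other receptor chains with a probe set, only Cntfr was above background, on the Ebf2+/- array (19.4, against 16.1 on the other), and Il27ra, Il31ra and Il12rb2 were below both floors.

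Janus kinases and the signalling proteins below them were mostly under 2-fold. Among 15 measured genes 2-fold was passed upwards by 2 and downwards by 0, beside 6.30% and 3.46% of all measured genes. The list's median was 0.14 (log2) over the 14 genes with a ratio. Jak1, the kinase most used by gp130, read 1636 and 1760.1, Jak2 183 and 171, and Tyk2 70.0 and 81.9. The 2 past 2-fold were Pik3r1, a regulatory subunit of phosphoinositide 3-kinase (145 and 353, 2.43-fold), and Stat5b (45.9 and 102, 2.23-fold). Stat5b did not pass 2-fold with spike-in scaling, with the pseudocount or as a mean over probe sets. Nor did it pass without the probe set types that can share probes, a setting that leaves out its brightest probe set. Pik3r1 stayed past 2-fold in all 8 settings. Ptpn11, the phosphatase that docks at the same gp130 site as Socs3, read 1076 and 1149.

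Negative regulators other than Socs3 held 0 genes past 2-fold in either direction among 17 measured. Over all measured genes 6.30% passed upwards and 3.46% downwards, and 0 of 17 is close to these shares. The list's median was -0.01 (log2) over the 16 with a ratio. Of the Socs3 relatives, Socs2 read 178 and 231, Socs5 311 and 344, Socs4 126 and 113, and Socs6 203 and 114, 1.79-fold lower. Cish, a feedback inhibitor of Stat5 signalling, read 69.3 and 85.0, and Socs1 was below both floors at 15.9 and 22.9. Pias3, an inhibitor of Stat3, read 110.0 and 113. Adam10 and Adam17, proteases that shed the interleukin-6 receptor, read 732 and 704, and 362 and 486. The phosphatase Ptpn6, abundant in blood cells, read 60.8 and 30.5, 1.99-fold lower; it passed 2-fold with spike-in and quantile scaling, as a mean over probe sets and without the shared-probe types, and Socs6 did so with spike-in scaling.

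Genes known as targets of Stat3 were counted next, most of which other pathways also induce. Among 32 measured genes 2-fold was passed upwards by 10 and downwards by 0, beside 6.30% and 3.46% of all measured genes, and the list's median was 0.44 (log2). Upwards, 6 passed with the pseudocount, 7 with spike-in scaling or without the shared-probe types, and 8 as a mean over all probe sets. With spike-in scaling Ccnd1 passed downwards. The secreted acute phase protein haptoglobin, Hp, read 1.01 and 95.6, at least 5.36-fold higher. Lipocalin 2, Lcn2, which binds bacterial iron carriers, read 2.60 and 63.5, at least 3.56-fold higher. The transcription factor Cebpd read 325 and 1103, 3.40-fold higher, and the AP-1 subunit Junb 101 and 307, 3.05-fold higher. The other 6 were Hgf, hepatocyte growth factor (24.1 and 73.5), the kinase Pim1 (2.32-fold), Zfp36, Fos (2846 and 6119), Irf1 (109 and 234) and Lbp (156 and 327), between 2.10-fold and 3.05-fold higher. Hgf, Irf1, Lbp and Pim1 were under 2-fold with the pseudocount, and Fos, Irf1 and Lbp with spike-in scaling. Lcn2, Irf1 and Zfp36 did not pass 2-fold without the shared-probe types, a setting that leaves out the probe set used for each. Lbp and Pim1 were under 2-fold as a mean over all probe sets. Not all targets were higher: Ccnd1 (cyclin D1) read 3401 and 1782, 1.91-fold lower, Mcl1 1428 and 1101, and Bcl6 81.5 and 67.1. Haptoglobin and lipocalin 2 are also made by adipocytes, whose marker genes were mostly higher on the same array. Among 6 measured, 2-fold was passed upwards by 5 and downwards by Cd36, beside 6.30% and 3.46% of all measured genes. Fabp4 read 18.4, just above the floor, and 552, 30.0-fold higher, which ranked 1 of 11176 genes with bounds at their value. Cebpa read 39.2 and 349.6, 8.91-fold higher. Lep was below both floors, and the summed signal of the 6 was 818 on the Ebf2+/- and 2893 on the Ebf2-/- array. The part of adipocytes in the result was not tested.

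**Figure D4:**
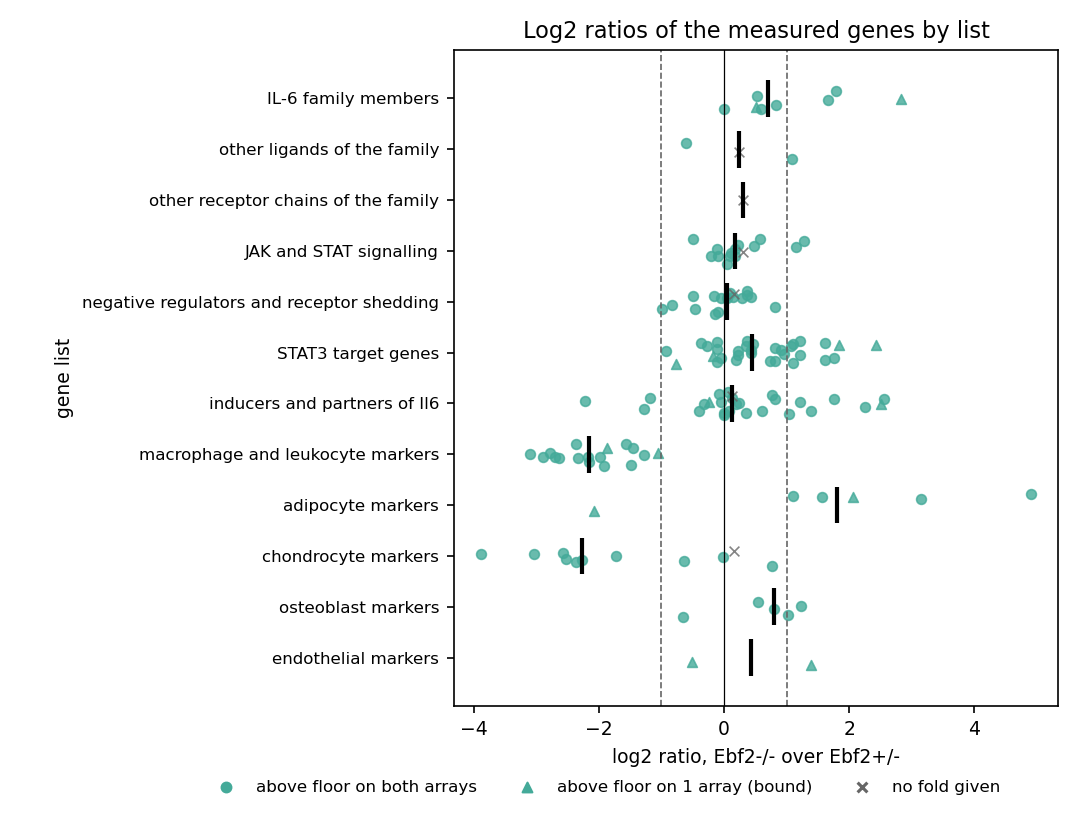
Log2 ratio of Ebf2-/- over Ebf2+/- (horizontal axis) for the measured genes of each list, with the list's median as a black bar, dashed lines at 2-fold, triangles for genes above the floor on 1 array, and crosses where no ratio is given, which enter the bar at their floor-set value (the label of the Il6 inducer list is shortened). The medians are 0.71 for the IL-6 family members, 0.44 for Stat3 targets, 0.13 (0.16 without the cross) for inducers and partners of Il6 and -2.15 for macrophage and leukocyte markers.

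Inducers of Il6 and inflammatory genes often made with it were split. Among 27 measured genes 2-fold was passed upwards by 7 and downwards by 3, beside 6.30% and 3.46% of all measured genes. The list's median was 0.16 (log2) over the 26 genes with a ratio, without Tnf (21.8 and 1.61), for which none is given. The chemokine Ccl7 read 34.6 and 205, 5.92-fold higher. The chemokine Cxcl5 read 13.8 and 102, at least 5.71-fold higher, and Cxcl1 73.7 and 350.4, 4.75-fold higher. Both chains of the interleukin-1 receptor were higher as well, with Il1rap at 90.3 and 237 (2.62-fold) and Il1r1 at 179 and 369 (2.06-fold). Il1r1 was under 2-fold with spike-in scaling, with the pseudocount and as a mean over all probe sets. Il1rap was so by both means over probe sets. The ligands of that receptor, Il1a and Il1b, were below both floors. In the other direction Cxcl2 read 136 and 29.3, 4.64-fold lower, Cd14 131 and 53.9, 2.43-fold lower, and Ptgs2, the inducible cyclooxygenase, 198 and 87.0, 2.28-fold lower. With the pseudocount Cxcl2 was the 1 gene past 2-fold downwards. The NF-kB inhibitor Nfkbia, itself an NF-kB target, read 820.0 and 870.4, the NF-kB subunit Rela 489 and 512, and the chemokine Ccl2 163 and 163. The mRNA-destabilising protein Zfp36, which acts on cytokine transcripts, read 345 and 797, 2.31-fold higher.

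Markers of other cell types were read beside these results. Macrophages are a common source of Il6 and carry Il6ra, and their genes were lower where Il6 was higher. All 17 measured macrophage and leukocyte markers, Cd14 among them, passed 2-fold downwards on the Ebf2-/- array, beside 3.46% of all measured genes. The list's median was -2.15 (log2). In the alternative settings 13 to 17 passed downwards. Of 4 Laptm5 probe sets above both floors, 1 was higher on the Ebf2-/- array. The summed signal of the 17 markers was 9263 on the Ebf2+/- and 2204 on the Ebf2-/- array. Of these markers Itgam was below both floors, Aif1 and Cx3cr1 were below the floor on the Ebf2-/- array, and Ptprc (CD45) read 205 and 27.5. Among 11 measured chondrocyte markers 7 passed 2-fold downwards and 0 upwards, beside 3.46% and 6.30% of all measured genes. The summed signals of the 11 were 18087 and 6021. Of 2 measured endothelial markers Tek was at least 2.61-fold higher (3.53 and 46.5; under 2-fold with the pseudocount) and Kdr at least 1.42-fold lower (33.9 and 3.32), and Pecam1 and Cdh5 were below both floors. The part of these cell types in the values of the members was not tested.

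The osteoblastic label was checked against 13 osteoblast markers, of which 8 had a probe set of their own and 5 were above background. Col1a1, the main collagen of bone, read 5478 and 12784, Col1a2 8597 and 15008, and osteonectin, Sparc, 12049 and 17570.4. Sp7, the osteoblast transcription factor osterix, read 83.7 and 53.3, and Alpl 25.4 and 51.8. Of 2 Col1a1 probe sets above both floors, 1 was higher on the Ebf2-/- array, and Col1a1 was under 2-fold by both means over probe sets. Alpl was under 2-fold with spike-in and quantile scaling and with the pseudocount. The markers of mature osteoblasts and osteocytes Ibsp, Dmp1 and Phex were below both floors. The targeted gene itself stood near background: the brightest Ebf2 probe set read 24.9 and 20.6, against floors of 17.8 and 23.8, another read 14.4 and 25.1, and the last 13.7 and 14.4. One was thus above the floor on the Ebf2+/- array only and one on the Ebf2-/- array only, and Ebf2 did not check the genotype labels. The signal ratio of 3' over 5' probe sets, a sign of RNA integrity, was 1.97 and 2.79 for beta-actin and 1.30 and 1.60 for Gapdh, and its part in the values of the members was not tested.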

How the data were processed

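RNA from sorted osteoblastic cells of Ebf2+/- and Ebf2-/- embryos was measured on 1 array each. The deposited values are the authors' MAS5 intensities, linear and scaled to one target on each array, per the submitters' processing notes and the values themselves, which name no version of MAS5. They ranged from 0.0650 to 15980.0 on the Ebf2+/- array and from 0.102 to 18361 on the Ebf2-/- array. Such scaling would hide a shift shared by most genes. Each gene was represented by its brightest probe set (mean of the log2 signals), lower values were set to the floor, and log2 ratios were taken (Python 3.11.15, pandas 2.3.3). No ratio is given for 609 measured genes whose signal on 1 array did not exceed the other array's floor. Precision is limited by there being 1 array per genotype. The members, lists, floor and the 2-fold size were chosen with earlier results of these data known. The genes named are the 9 members, Ebf2, up to 4 per direction past 2-fold from each list, measured pathway genes and the 3 genes nearest to Il6; other list members were named after their values were seen. Scaling, floor, pseudocount and probe set choice were varied in 7 settings, with 1 added after seeing the data (the mean over probe sets with a ratio), and the procedure was tested on simulated data. In the simulation only genes well above the floor on both arrays were changed, so it says little about lower bounds such as that of Il6. Probe sets with several symbols (932) or none listed (9211) were left out.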

Additional observations from a re-analysis of the deposited data

How the results depend on the processing

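Il6, Lifr and Socs3 passed 2-fold upwards by the values reported. Il6 and Socs3 did so in all 8 alternative settings, and Il6ra joined them without a floor (4 members). Lifr did so in all but the mean over all probe sets (0.95, 2 members then), which counts a probe set below both floors at the ratio of the floors; over its probe sets with a ratio, an alternative added after seeing the data, the mean was 1.22. The number past 2-fold downwards was 0 in each. Their median (log2) was 0.71 and lay between 0.53 and 1.25, the latter without a floor, where the Il6ra log2 ratio of 3.70 rests on an Ebf2+/- signal of 1.96. Of 62 member ratios recomputed, 56 moved by less than the pooled SD between probe sets and 0 of those past 2-fold changed direction. The others were Il6 with a pseudocount of 50 (log2 ratio 1.41), Il6ra without a floor, and Il6st (0.38) and Lifr by both means over probe sets. The count of 56 is no measure of robustness, because part of it was fixed in advance. Spike-in scaling lowers each ratio by 0.18, less than the pooled SD, and changes of floor leave the 6 members above both floors unchanged. Il6ra has no value with the higher floor or without _s_at, _x_at and _a_at probe sets, because it is then not above background. With spike-in scaling, where log2 ratios are lower by 0.18 and all measured genes have a median of -0.14, 4.48% of them were at least 2-fold higher and 5.30% lower. Counts past 2-fold in the lists moved by over 1.5 times in some settings: from 10 to 6 upwards for Stat3 targets with the pseudocount, and from 0 downwards to 1 with spike-in scaling and 2 without a floor (Sbno2 and Batf); from 3 downwards to 1 with the pseudocount and 5 without a floor (with Tnf and Zc3h12a) for partners of Il6; from 0 downwards to 1 or 2 for negative regulators, from 2 upwards to 1 for Janus kinases and signalling, from 1 to 0 for other ligands, from 1 upwards to 0 with the pseudocount (Tek) and from 0 downwards to 1 without a floor (Kdr) for endothelial markers, and from 5 upwards to 3 for adipocyte markers without _s_at, _x_at and _a_at probe sets. Osteoblast markers likewise moved from 2 upwards to 1 in 5 of the 8 settings. No paired analysis was possible because each genotype has 1 array and the result comes from no test.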
